A study of Mus musculus with 12 samples.

Results

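The genes of de novo fatty acid synthesis were followed through adipocyte differentiation in 3T3-L1, mouse fibroblasts that store fat after hormonal induction. The members were set by name as 8 enzymes (Acly, Acaca, Acacb, Fasn, Elovl6, Scd1, Scd2 and Me1) and 2 transcription factors (Srebf1 and Mlxipl). All 10 were found among the 55487 genes of the expression table, each on 1 row. Of these, 9 passed the filter on low values, TPM of 1 or more in 2 or more libraries, together with 15968 genes in all, and Mlxipl did not. TPM expresses a transcript as a length-corrected share of its library, so it allows genes to be compared but carries no sequencing depth.

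The line shScram carried a control hairpin, and the line shFto a hairpin against the RNA demethylase Fto, each delivered by lentivirus and selected with puromycin. Fragmented total RNA was sequenced from preadipocytes (Pre), from cells at mitotic clonal expansion (MCE), and from cells at the differentiation stage (Diff), with 2 libraries for each of the 6 groups. Induction used IBMX, dexamethasone and insulin, given for 3 days from 2 days after confluence, followed by medium with insulin at 10 µg/ml. Which of the designed Fto hairpins was used, and whether both replicates carried the same one, is not named. The labels also do not say that replicates were separate cultures, so p-values measure only the spread between these libraries. Between stages the cells differ in hormone exposure and time together, which cannot be told apart. From induction on the serum also changed, from newborn calf to fetal bovine.

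Fatty acid synthesis begins in the cytosol, where ATP citrate lyase (Acly) turns citrate into acetyl-CoA and the acetyl-CoA carboxylases (Acaca, Acacb) turn that into malonyl-CoA. Fatty acid synthase (Fasn) joins these units into palmitate with NADPH, part of which comes from malic enzyme (Me1), after which Elovl6 lengthens the chain and the stearoyl-CoA desaturases (Scd1, Scd2) place its first double bond. The factors SREBP1 (Srebf1) and ChREBP (Mlxipl) switch these enzymes on, and adipocytes and liver are the tissues best known for the pathway.

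The hairpin target was checked first. Fto held 52.7 and 58.3 TPM in shScram preadipocytes against 5.51 and 5.55 TPM in shFto preadipocytes, and shFto cells held 10.8% and 10.1% of the control mean at MCE and Diff. Replicate 1 of shScram at Diff has a treatment entry that names the knockdown, and it was grouped by its title. It held 73.5 TPM of Fto, close to the 70.8 TPM of its partner and far from the 7.47 and 7.05 TPM of shFto cells at that stage.

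The 2 libraries of shScram preadipocytes stood apart from each other, which bears on every value below that involves them. Across genes the correlation of log2(TPM + 1) between them was 0.9388, against 0.9896 to 0.9934 in the other groups. Transcripts of mitochondrial genes took 14.5% of TPM in replicate 1 and 7.34% in replicate 2, and 4.58% to 9.17% in the other 10 libraries. Over 15928 genes the gap between the 2 libraries was related to the GC content of the longest transcript (Spearman's rho -0.69, across genes, which are not independent), while rho lay between -0.20 and 0.36 in the other groups. Among the members, Srebf1 (58.4% GC) and Fasn (57.9% GC) were lower in replicate 1 by 1.81 and 1.64 on the log2(TPM + 1) scale, larger than their gaps of at most 0.16 and 0.22 in any other group. Elovl6 (44.0% GC) differed by only 0.05. Results are therefore given over all 12 libraries and again without replicate 1 of shScram preadipocytes, called the doubted library below. Which of the 2 libraries is the unusual one cannot be settled from TPM values, and some calls and signs depend on which is left out. A correction for GC content, chosen after seeing the data, moved the Fasn difference between the lines in preadipocytes from 0.22 to -0.51 and gave 4 members called at Diff in place of 1, as the share of all genes called there went from 21.2% to 32.6%.

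**Figure D1:**
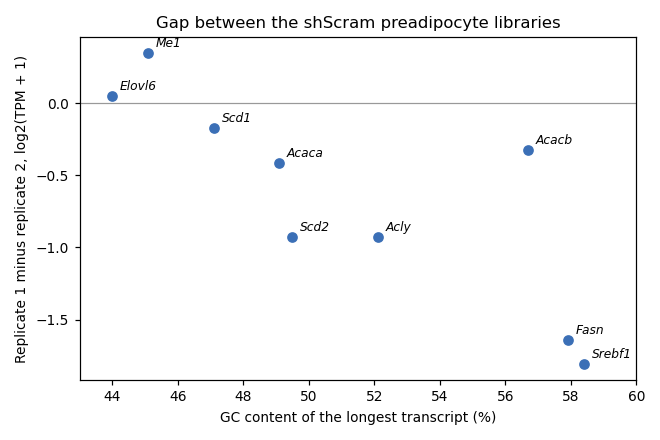
The gap between the shScram preadipocyte libraries, replicate 1 minus replicate 2 on the log2(TPM + 1) scale (vertical axis), against GC content of the longest transcript in percent (horizontal axis), 1 point for each of the 9 members that passed the filter. Fasn and Srebf1, the GC-richest, lie lowest at -1.64 and -1.81, and Elovl6 and Me1, the least GC-rich, lie above 0.

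By abundance, Scd2 led the set in every library, with 31.1% to 43.8% of the summed TPM of the 10 members. Acly, Scd1 and Fasn followed, with means over the 12 libraries of 160.7, 149.5 and 129.7 TPM, then Me1, Srebf1, Acaca and Elovl6, and last Acacb at 4.39 TPM. Mlxipl, which encodes ChREBP, was listed at 0 in 10 libraries and at 0.06 and 0.03 TPM in one shFto library of each of the Pre and Diff stages, so it was not tested. The related factor genes Mlx and Mlxip passed the filter. The sum over the members was 978.9 and 1612.0 TPM in shScram preadipocytes, 993.3 and 905.6 TPM at MCE and 740.9 and 714.8 TPM at Diff. In shFto cells it was 1004.0 and 1057.9 TPM, then 1106.7 and 1074.8 TPM, then 759.3 and 810.5 TPM. The members' sum was thus lowest at Diff in both lines, while the summed level of the adipocyte markers was highest there (below).

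**Figure D2:**
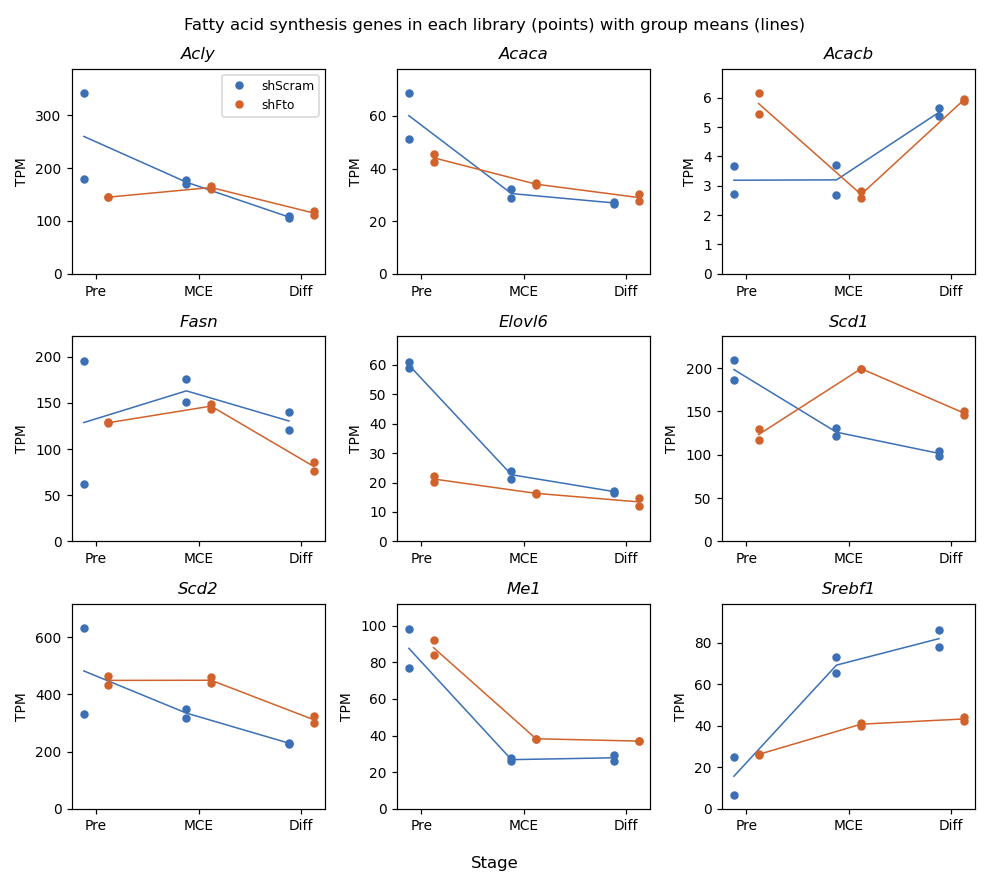
Level in TPM (vertical axes, each from 0) of the 9 tested members at the Pre, MCE and Diff stages (horizontal axes), with 1 point per library and lines through the means of the 2 libraries of shScram (blue) and shFto (orange) cells. In shFto cells Scd1 was at 199 and 200 TPM at MCE, above all shScram libraries of the MCE and Diff stages, while Srebf1 stayed at or below 44.1 TPM against 65.2 to 85.9 TPM in shScram cells of those stages.

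Acly (chromosome 11, 100476353 to 100528000, GRCm38), the step that supplies acetyl-CoA, held 178.6 and 341.1 TPM in shScram preadipocytes, 177.2 and 169.5 TPM at MCE and 109.8 and 105.0 TPM at Diff. The shFto libraries were at 145.6 and 144.5 TPM, then 165.4 and 161.2 TPM, then 112.2 and 118.0 TPM. Both shFto preadipocyte libraries were below both shScram ones, and shFto cells held 94.2% of the control mean at MCE and 107.2% at Diff. The fall in shFto preadipocytes was called (log2 fold change, log2FC, of -0.76, standard error 0.24, limma adjusted p = 0.0446), and without the doubted library it was -1.23 (adjusted p = 4.97e-06). Without replicate 2 in its place the difference was -0.30, so its size rests on which of these libraries is kept, and of the 12 fits that left out 1 library only 2 kept the call (adjusted p up to 0.16).

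Acaca (chromosome 11, 84129672 to 84401651), the main cytosolic carboxylase of fat-making cells, held 51.4 and 68.8 TPM in shScram preadipocytes, 32.2 and 28.8 TPM at MCE and 27.4 and 26.5 TPM at Diff. The shFto libraries held 42.5 and 45.7 TPM, 34.5 and 33.7 TPM, and 27.8 and 30.2 TPM. Its decline in shScram cells from Pre to MCE was called (log2FC -0.94, limma adjusted p = 0.0015), and the difference between the lines was not called at any stage over all 12 libraries. Acacb (chromosome 5, 114146535 to 114250761), the carboxylase at the mitochondrial membrane, whose malonyl-CoA restrains fatty acid oxidation, was low throughout. It held 2.72 and 3.66 TPM in shScram preadipocytes, 2.70 and 3.71 TPM at MCE, and 5.37 and 5.64 TPM at Diff. In shFto cells it held 5.43 and 6.18 TPM, then 2.84 and 2.57 TPM, then 5.88 and 5.97 TPM. The shFto preadipocytes lay above the control ones (log2FC 0.71, limma adjusted p = 0.0209), a call that was lost without the doubted library (0.54, adjusted p = 0.057) and in 2 other fits that left out 1 library (up to 0.106). With the GC correction it was 0.08 (adjusted p = 0.778). The ratio of Acaca to Acacb was 18.9 and 18.8 in shScram preadipocytes and 7.83 and 7.40 in shFto preadipocytes. At MCE the order was the other way, with 11.94 and 7.77 in shScram and 12.14 and 13.08 in shFto cells. The ratio was 4.70 to 5.09 in the 4 libraries of the Diff stage.

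Fasn (chromosome 11, 120805846 to 120824547), which makes palmitate, held 61.9 and 195.5 TPM in shScram preadipocytes, 175.4 and 150.6 TPM at MCE and 139.9 and 120.9 TPM at Diff. Under shFto it reached 128.9 and 128.1 TPM, then 149.2 and 143.8 TPM, then 76.7 and 85.8 TPM. At the Diff stage both shFto libraries were below both controls, at 62.3% of the control mean. Over all 12 libraries this difference was not called (log2FC -0.67, standard error 0.41, limma adjusted p = 0.29). Without the doubted library it had the same size and was called (-0.67, standard error 0.095, adjusted p = 0.000282), since the spread is estimated over all groups.

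Srebf1 (chromosome 11, 60199089 to 60222581), which encodes SREBP1, held 6.41 and 24.97 TPM in shScram preadipocytes, 73.2 and 65.2 TPM at MCE and 85.9 and 78.0 TPM at Diff. The shFto libraries held 26.4 and 26.0 TPM, 41.5 and 40.0 TPM, and 42.4 and 44.1 TPM. The groups did not overlap at the MCE and Diff stages, where shFto cells held 58.9% and 52.8% of the control means. As for Fasn, these differences were not called over all 12 libraries. They were -0.75 at MCE (limma adjusted p = 0.312 over 12 libraries, 5.38e-05 without the doubted library) and -0.91 at Diff (0.191 and 1.38e-05). Srebf1 overlaps Rai1 at its end on the opposite strand, and since no strand setting is given in the sources used here, reads of the overlap cannot be assigned.

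Start-site sequences are shown for Fasn and for Srebf1, an enzyme and a factor that were both lower in shFto cells at Diff without the doubted library, as Elovl6 also was. RefSeq windows of 250 bases before to 50 bases after a start site (GRCm38.p6) were found for 8 members, 12 windows in all, and none was used for Scd1 and Scd2. Capitals mark the CCAAT box, read as CCAAT or its complement ATTGG, and sequences run 5′ to 3′ on the minus strand. The Fasn window is chr11:120824498-120824797 and the Srebf1 window, the innermost of 3 listed for that gene, is chr11:60210422-60210721.
Fasn: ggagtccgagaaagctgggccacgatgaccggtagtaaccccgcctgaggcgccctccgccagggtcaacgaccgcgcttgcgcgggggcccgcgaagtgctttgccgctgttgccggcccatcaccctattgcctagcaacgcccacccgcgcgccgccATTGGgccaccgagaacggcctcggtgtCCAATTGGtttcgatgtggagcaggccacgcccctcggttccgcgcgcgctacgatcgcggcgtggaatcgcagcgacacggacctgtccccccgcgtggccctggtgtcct
Srebf1: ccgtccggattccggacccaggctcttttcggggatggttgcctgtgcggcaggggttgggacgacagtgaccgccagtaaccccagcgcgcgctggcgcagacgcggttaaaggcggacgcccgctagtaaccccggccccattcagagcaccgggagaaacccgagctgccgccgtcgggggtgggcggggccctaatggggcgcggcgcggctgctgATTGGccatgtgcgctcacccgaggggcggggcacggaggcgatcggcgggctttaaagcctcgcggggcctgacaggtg
The Fasn window held 3 CCAAT boxes, starting 90, 62 and 59 bases before the start site, of which the last 2 overlap on opposite strands. The Srebf1 window held 1, starting 30 bases before it. A CCAAT box was in 7 of the 12 windows, against 37.4% of all 32851 windows, and a GC box (GGGCGG) in 5, against 35.7%. The E-box CACGTG and an SRE-like motif (TCACNCCAC) were each in 1 window, both of Mlxipl, against 7.2% and 1.2% of all windows. Both strands were searched for each motif, and these matches describe letters, not binding.

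Elovl6 (chromosome 3, 129532355 to 129638495), the elongase that takes palmitate to stearate, held 61.05 and 58.89 TPM in shScram preadipocytes, 24.1 and 21.2 TPM at MCE and 16.6 and 17.2 TPM at Diff. In shFto cells it held 20.3 and 22.1 TPM, then 16.2 and 16.4 TPM, then 12.1 and 14.8 TPM. The shFto libraries were lower at every stage without overlap, and shFto preadipocytes were already near the level that control cells had at MCE. The fall was 2.83-fold in preadipocytes (log2FC -1.46, standard error 0.13, limma adjusted p = 0.000246) and 1.39-fold at MCE (-0.45, adjusted p = 0.0472). At the Diff stage the difference was -0.32 (adjusted p = 0.125). The preadipocyte call held when any 1 of the 12 libraries was left out (adjusted p of 0.00466 at most), while the MCE call was lost in 10 of those 12 fits (up to 0.246).

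Scd1 (chromosome 19, 44394455 to 44407879) held 186.7 and 210.1 TPM in shScram preadipocytes, 130.8 and 121.4 TPM at MCE and 99.01 and 104.2 TPM at Diff. The shFto libraries were at 117.0 and 129.6 TPM, then 199.4 and 199.6 TPM, then 146.3 and 150.5 TPM. Its order between the lines thus turned over: shFto cells were lower as preadipocytes (log2FC -0.68, limma adjusted p = 0.00419) and higher at MCE (0.66, adjusted p = 0.00412) and at Diff (0.54, adjusted p = 0.00896). The first 2 calls held in all 12 fits that left out 1 library (adjusted p of at most 0.0418 and 0.0435). The call at Diff was lost without replicate 1 of shScram or either replicate of shFto at that stage (up to 0.0708).

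Scd2 (chromosome 19, 44293674 to 44306864), the neighbouring desaturase gene, held 331.7 and 632.0 TPM in shScram preadipocytes, 350.0 and 319.1 TPM at MCE and 230.7 and 228.0 TPM at Diff. In shFto cells it held 433.8 and 463.7 TPM, then 459.6 and 439.1 TPM, then 299.0 and 324.2 TPM. At the MCE and Diff stages shFto libraries lay above all controls, by 1.34-fold and 1.36-fold. Neither was called over 12 libraries (limma adjusted p = 0.297 and 0.249), and both were without the doubted library (0.00104 and 0.000778). The ratio of Scd2 to Scd1 was 3.71 and 3.58 in shFto preadipocytes and 2.05 to 2.68 in the 8 libraries of the later stages. It was 1.78 and 3.01 in shScram preadipocytes, a pair too far apart to place. Scd1 and Scd2 are close paralogs, and how reads shared by them were split is not known, so their separate values are less certain than their sum. In preadipocytes the sums of the lines overlapped (controls 518.5 and 842.1 TPM, knockdown cells 550.8 and 593.3 TPM). Replicate 1 of the controls lay below both knockdown libraries and replicate 2 above both, so whether the sum changed order as Scd1 did is unsettled. The sum was 480.8 and 440.4 TPM against 659.0 and 638.7 TPM in shScram and shFto cells at MCE, and 329.7 and 332.2 TPM against 445.3 and 474.6 TPM at Diff.

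Me1 (chromosome 9, 86581371 to 86695953), a cytosolic source of NADPH, held 98.3 and 76.9 TPM in shScram preadipocytes, 27.7 and 26.0 TPM at MCE and 26.4 and 29.4 TPM at Diff. Under shFto it reached 84.0 and 92.1 TPM, then 38.1 and 38.4 TPM, then 36.98 and 37.00 TPM. The preadipocyte groups overlapped, and at both later stages the shFto libraries were higher than all controls. The rise at MCE was called (log2FC 0.50, limma adjusted p = 0.0367), but in only 2 of 12 fits that left out 1 library (adjusted p up to 0.183). At the Diff stage the difference was 0.40 (adjusted p = 0.0726). Elovl6, Me1, Acaca and Acacb each overlap a listed gene on the opposite strand, which adds uncertainty to their values for the same reason as for Srebf1.

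Counted over the set, shFto preadipocytes had 1 of 9 tested members higher (Acacb) and 3 lower (Acly, Scd1 and Elovl6), where 28.2% of all tested genes were called. At the MCE stage 2 were higher (Scd1 and Me1) and 1 lower (Elovl6), where 17.8% were called. At the Diff stage only Scd1 was called, higher, where 21.2% were called. The member shares are of the same order as these backgrounds. Their median log2FC values were -0.03, -0.09 and 0.10 at the successive stages, against 0.08, 0.05 and 0.03 over all tested genes.

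Without replicate 1 of shScram preadipocytes, 6 members were lower in shFto preadipocytes (Fasn, Acaca, Acly, Scd1, Scd2 and Elovl6) and none higher, with 29.0% of all genes called. Keeping that library and leaving out replicate 2 instead gave 7 calls, with Fasn, Acacb, Scd2 and Srebf1 higher and Acly, Scd1 and Elovl6 lower, where 62.8% of all genes were called. The difference then became 1.04 in place of -0.60 for Fasn and 0.43 in place of -0.49 for Scd2, each called both ways, so no direction is given for either gene in preadipocytes. At the MCE stage Scd1, Scd2 and Me1 were then higher and Elovl6 and Srebf1 lower, with 41.0% of all genes called. At the Diff stage Scd1, Scd2 and Me1 were higher and Fasn, Elovl6 and Srebf1 lower, with 45.7% called. Leaving out replicate 2 instead also gave 5 calls at MCE and 6 at Diff, with 41.0% and 45.6% of all genes called. In the fit without replicate 1, then, at both later stages the desaturases and malic enzyme stood on the higher side in shFto cells, and the factor and the elongase on the lower side.

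**Figure D3:**
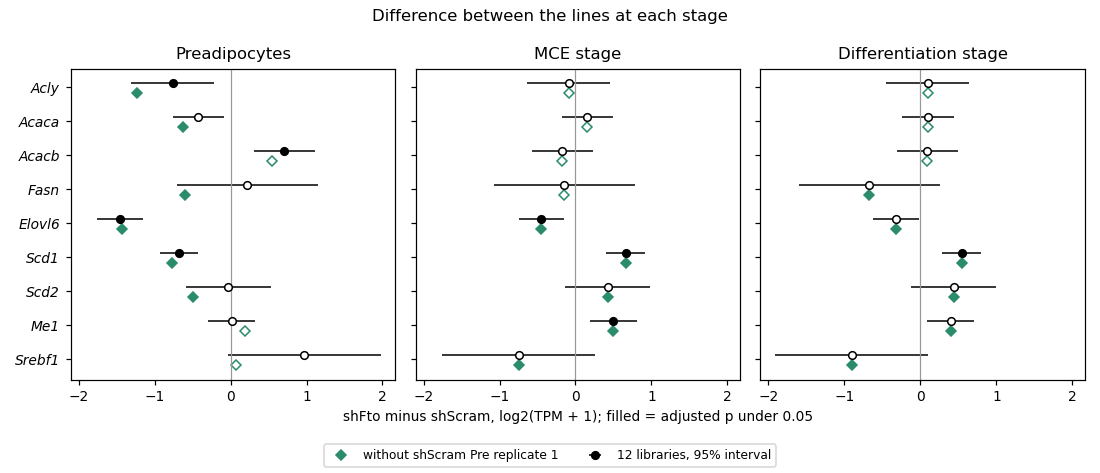
Difference between shFto and shScram cells on the log2(TPM + 1) scale (horizontal axes) for the 9 tested members (rows) in preadipocytes, at MCE and at Diff. Black circles with 95% intervals are from all 12 libraries and green diamonds from the fit without replicate 1 of shScram preadipocytes, both filled where the adjusted p was under 0.05. Scd1 moved from -0.68 in preadipocytes to 0.66 and 0.54, and the wide intervals of Fasn and Srebf1 belong to the fit with all 12 libraries.

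Whether the knockdown difference itself changed between stages was tested as an interaction. From Pre to MCE it rose for Scd1, by 1.34 (limma adjusted p = 0.00255), and for Elovl6, by 1.01 (adjusted p = 0.0195), with 2 of 9 members called where 5.11% of all genes were. The Scd1 call held in all 12 fits that left out 1 library (adjusted p of at most 0.0226) and the Elovl6 call in 6 of them (up to 0.0943). From MCE to Diff no member was called by limma, where 2.49% of all genes were, and 0 members had an unadjusted p under 0.05. Without the doubted library the first interaction was called for 6 members, higher for Scd1, Acly, Elovl6, Scd2 and Acaca and lower for Srebf1, with 14.1% of all genes called, and the later one was called for 1 member, Fasn (-0.53, adjusted p = 0.0257), with 17.1% called. Leaving out replicate 2 instead, the first was called for 7 members, 4 higher and 3 lower, with 52.5% of all genes called. For Srebf1 the first interaction was -1.72 over all 12 libraries (adjusted p = 0.156), -0.81 without replicate 1 (adjusted p = 0.00252) and -2.62 without replicate 2 (adjusted p = 5.05e-07).

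In the shScram control cells the set was followed from stage to stage, and how fully these cells had differentiated was not tested. From Pre to MCE 4 members fell, Me1 (log2FC -1.66, limma adjusted p = 4.09e-05), Elovl6 (-1.37, adjusted p = 9.5e-05), Acaca (-0.94) and Scd1 (-0.65, adjusted p = 0.00237). Srebf1 rose by 2.34 (adjusted p = 0.00387), and by 1.43 without the doubted library. In this comparison 39.1% of all genes were called, and all 5 calls held in the 12 fits that left out 1 library. From MCE to Diff only Acacb rose (0.64, adjusted p = 0.0288), where 25.2% of all genes were called. That call was lost without 5 of the libraries taken 1 at a time (adjusted p up to 0.16), and with median-ratio scaling (0.42), quantile normalization (0.27), the GC correction (0.48) and no filter (adjusted p = 0.052). With the GC correction 5 members instead fell (Acaca, Acly, Scd1, Scd2 and Elovl6), where 32.8% of all genes were called. Without the doubted library 5 members fell at this step (Acly, Scd2, Elovl6, Fasn and Scd1) and 2 rose (Acacb and Srebf1), where 52.0% of all genes were called.

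In shFto cells, the first step lowered Me1 (-1.18, limma adjusted p = 0.000299) and Acacb (-0.88, adjusted p = 0.00581) and raised Scd1 (0.69, adjusted p = 0.00184), where 28.7% of all genes were called. The second step raised Acacb again (0.90, adjusted p = 0.00612) and lowered Scd1 (-0.43, adjusted p = 0.0219, lost in 4 of 12 fits that left out 1 library), where 26.7% were called. Without the doubted library, Srebf1 (0.62, adjusted p = 0.000121) and Acly also rose at the first step and Acaca and Elovl6 also fell, where 51.1% of all genes were called. At the second step Fasn (-0.84, adjusted p = 6.09e-05), Acly, Scd2 and Acaca then fell too, where 50.9% were called. The GC correction gave 1 higher (Acacb) and 7 lower at that step, Srebf1 alone not being called, where 39.3% were called. Over both steps the ratio of the Srebf1 group means, Diff to Pre, was 1.65 in shFto cells. In shScram cells it was 5.22, but 3.28 without replicate 1 and 12.8 without replicate 2 of the preadipocytes. These stage comparisons share libraries with the comparisons between the lines. The median of all genes lay at -0.17 and 0.23 for the successive steps in shScram cells and at -0.18 and 0.17 in shFto cells, so a member at 0.05, as Me1 at the second step in shScram cells, was below the typical gene, and its sign turned with median-ratio scaling (-0.21). Under that scaling Srebf1 at the second step was also just below 0, at -0.03 in shScram and -0.13 in shFto cells.

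The fat cell markers moved otherwise. Of 10 markers of adipocytes, 9 were tested, and all 9 rose from Pre to MCE in shScram cells and 8 from MCE to Diff. At these steps 39.1% and 25.2% of all genes were called. In shFto cells 6 rose at the first step, and at the second 3 rose (Adipoq, Fabp4 and Cfd) and 1, Cidec, fell (-0.85, limma adjusted p = 0.00821). In that line 28.7% and 26.7% of all genes were called at the successive steps. The summed level of the markers in shScram cells was 22.0 and 29.0 TPM, then 319.1 and 328.6 TPM, then 1202.6 and 1151.9 TPM, with Fabp4, a fatty acid carrier, the most abundant at the later stages. In shFto cells the sums were 31.5 and 29.2 TPM, 99.4 and 106.4 TPM, and 200.9 and 179.0 TPM. Between the lines 6 of the 9 were lower in shFto cells at MCE and 8 at Diff, where the adipokine genes Cfd and Adipoq and the lipid droplet gene Cidec led. Cfd fell by 4.21, Cidec fell by 4.12 and Adipoq fell by 3.72 on the log2 scale. At MCE the leading genes were Fabp4 (-2.17), Cidec (-1.97) and Cfd (-1.85). In preadipocytes 1 marker was called, the hormone-sensitive lipase gene Lipe, higher by 0.85 and by 0.40 without the doubted library. The adipokine gene Lep was listed at 0 in 11 libraries. In these bulk libraries fewer adipocytes and less RNA per adipocyte cannot be told apart, and the part of the smaller adipocyte signal in the differences of Fasn, Srebf1 and the other members was not tested. Markers of fibroblasts summed to 7078 to 12638 TPM in every library, with Vim, Col1a2 or Col3a1 the most abundant. In shFto cells 3 of these 9 markers were higher and 2 lower in preadipocytes, 3 and 2 at MCE, and 2 and 1 at Diff, where 28.2%, 17.8% and 21.2% of all genes were called. Leaving out the doubted library gave 4 and 4, 6 and 3, and 6 and 1, where 29.0%, 41.0% and 45.7% were called. The collagen gene Col3a1 was higher at each stage (0.80, 1.79 and 1.03), as was Thy1 (0.67, 1.14 and 1.00), while Vim was lower at each stage (-0.65, -0.64 and -0.93) and Pdgfra lower in preadipocytes (-0.67). The preadipocyte differences were 0.45 for Col3a1, 0.41 for Thy1, -0.57 for Vim and -0.46 for Pdgfra without the doubted library, all still called. Pdgfrb was higher in preadipocytes (0.93, and 0.44 without the doubted library), and at MCE Dcn was higher (1.58) and Dlk1 lower (-1.32). Macrophage markers summed to at most 10.98 TPM with Adgre1 at 0 throughout and Lyz2 the most abundant, which was higher in shFto preadipocytes by 0.76 (adjusted p = 0.0182, and 0.0628 without the doubted library). Those of epithelial, endothelial, muscle and liver cells summed to at most 1.12 TPM each, led by Krt8, Pecam1, Ttn and Apoa1.

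**Figure D4:**
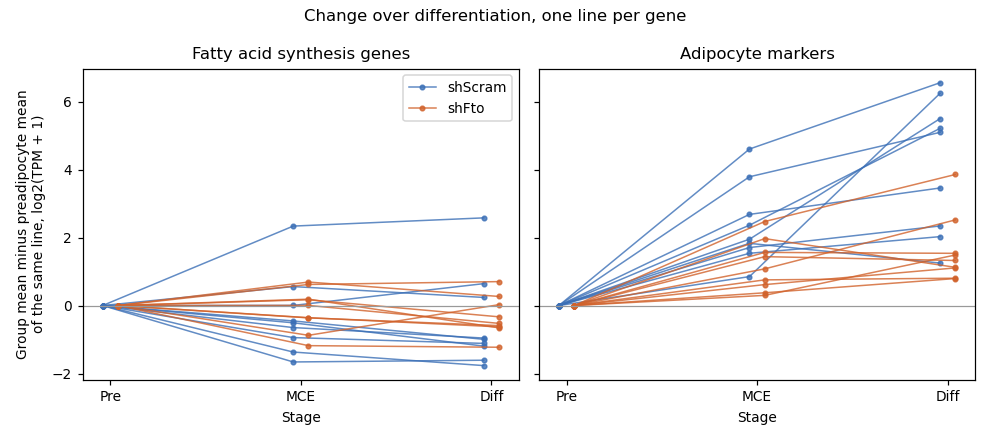
Change from the preadipocyte mean of the same line on the log2(TPM + 1) scale (vertical axis) over the Pre, MCE and Diff stages (horizontal axes), 1 line per gene, for the 9 tested members and 9 tested adipocyte markers in shScram (blue) and shFto (orange) cells. All adipocyte markers lie above 0 at the later stages, while among the members in shScram cells Srebf1 stands highest and Me1 and Elovl6 lowest.

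Genes around the pathway were taken from lists by role. The activators hold Thrsp (Spot 14), a small nuclear protein linked to lipogenesis in fat and liver, and its relative Mid1ip1, which promotes assembly of acetyl-CoA carboxylase. Thrsp held 0.32 and 0 TPM in shScram preadipocytes, 1.63 and 1.93 TPM at MCE and 52.5 and 52.0 TPM at Diff. In shFto cells it held 0.12 and 0.32 TPM, then 0.12 and 0.13 TPM, then 1.37 and 0.94 TPM. At the Diff stage it was 45.3-fold lower by group means (log2FC -4.64 with the pseudocount, limma adjusted p = 1.37e-06), further than any of the members, and at MCE the fold change was -1.30 (adjusted p = 0.00195) at levels under 2 TPM. Mid1ip1 held 120.7 and 121.4 TPM in shFto preadipocytes against 23.3 and 75.5 TPM in controls (log2FC 1.5, adjusted p = 0.0285). Its difference was 0.68 without the doubted library (adjusted p = 0.00187). Of the 3 tested genes of this list, which also holds Prkaa1, 1 was called at each stage, where 28.2%, 17.8% and 21.2% of all genes were. Leaving out the doubted library gave 1 lower at MCE, and 1 higher and 1 lower at Diff, where 41.0% and 45.7% of all genes were called. Prkaa1, a catalytic subunit of the kinase AMPK, which restrains the carboxylases, is the other abundant gene of that list. It was not called over all 12 libraries.

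Over all 12 libraries, 28.2%, 17.8% and 21.2% of all genes were called between the lines at Pre, MCE and Diff, the background for the lists that follow. Among 12 tested enzymes of other elongation and desaturation steps, 5 were higher and 1 lower in shFto cells at MCE, and 3 higher and 2 lower at Diff, against 1 higher in preadipocytes. Of the polyunsaturated fatty acid desaturases, Fads2 led the list at MCE, and Fads2 and Fads1 led it at Diff. At MCE the rise of Fads1 was smaller (0.79, limma adjusted p = 0.00617) than that of Hacd1 (below). Fads2 held 54.5 and 53.3 TPM in shScram cells against 127.5 and 122.0 TPM in shFto cells at MCE, and 41.8 and 39.0 TPM against 88.0 and 90.5 TPM at Diff (log2FC values 1.20 and 1.13, limma adjusted p = 0.000393 and 0.000446). Fads1 rose at Diff by 1.076 (adjusted p = 0.00107), from 57.8 and 58.3 TPM to 125.6 and 121.4 TPM. At the MCE stage the dehydratase gene Hacd1 was higher (1.12) and its relative Hacd2 lower (-0.74), and at Diff the elongase Elovl5 was higher (0.99). The median over the list was 0.36 and 0.38 at these stages, against 0.05 and 0.03 over all genes. Tecr, the last enzyme of the elongation cycle, was the most abundant of the list in every library. It was not called between the lines over all 12 libraries. Its shFto libraries lay above both controls at MCE and at Diff, by 1.21-fold and 1.27-fold in the means, and the lines overlapped in preadipocytes.

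**Figure D5:**
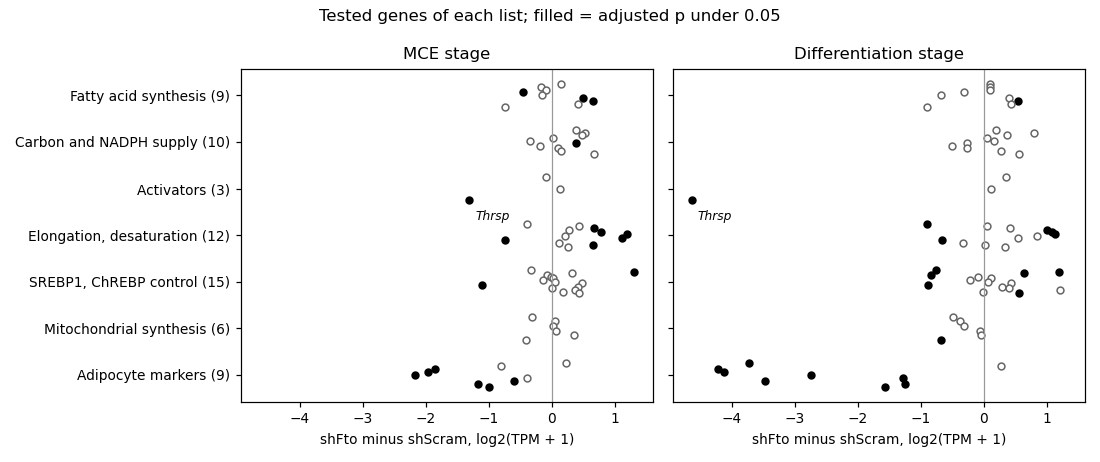
Difference between shFto and shScram cells on the log2(TPM + 1) scale (horizontal axes) at the MCE and Diff stages for each tested gene (points, filled where the adjusted p was under 0.05) of the members, 5 lists of related genes and the adipocyte markers (rows). Thrsp lies at -1.30 and -4.64, and the adipocyte markers lie mostly to the left.

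Of 15 tested genes that control SREBP1 and ChREBP, 4 were higher and 1 lower in shFto preadipocytes, 1 higher and 1 lower at MCE, and 3 higher and 3 lower at Diff. Insig1, which holds SREBP in the endoplasmic reticulum and is itself an SREBP target, rose at MCE from 28.6 and 26.6 TPM in controls to 71.5 and 68.2 TPM with shFto (1.31, limma adjusted p = 0.00252), and at Diff from 28.3 and 26.0 TPM to 57.8 and 68.9 TPM (1.19, adjusted p = 0.00342). Nr1h3, which encodes LXR alpha, an activator of Srebf1 transcription, changed its order between the lines. Control libraries held 1.98 and 3.14 TPM against 9.44 and 9.17 TPM in shFto preadipocytes, 6.90 and 4.47 TPM against 1.76 and 2.38 TPM at MCE, and 11.9 and 10.3 TPM against 4.36 and 6.90 TPM at Diff (1.55, -1.11 and -0.89, adjusted p = 0.00467, 0.0196 and 0.0405). Lpin1, a phosphatidate phosphatase that also restrains SREBP, was lower in shFto preadipocytes (-1.37) and at Diff (-0.84). In preadipocytes Trib3, a pseudokinase of the stress response, and Nr1h2, which encodes LXR beta, were higher (1.78 each), with shScram libraries as far apart as 28.1 and 124.8 TPM for Trib3 and 12.7 and 71.0 TPM for Nr1h2. The differences were 0.72 and 0.58 without the doubted library (adjusted p = 0.000342 and 0.00263). Srebf2, the sterol-side factor, was among the most abundant of the list and was not called between the lines over all 12 libraries. At Diff its shFto libraries lay above both controls, by 1.32-fold in the means, while the lines overlapped in preadipocytes and at MCE.

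Among 10 tested genes of carbon and NADPH supply, 1 was lower in shFto preadipocytes (the lactate and pyruvate carrier Slc16a1, -0.61), 1 higher at MCE (the malate dehydrogenase Mdh1, 0.39) and none called at Diff by limma, where 2 had an unadjusted p under 0.05. Slc16a1 held 51.4 and 80.2 TPM in shScram preadipocytes and 38.9 and 44.5 TPM in shFto ones, so its size of change depends on the control library kept. Idh1, a cytosolic NADPH source, led that list in most libraries. The separate mitochondrial fatty acid synthesis, 6 tested genes led by the acyl carrier protein gene Ndufab1, had 1 gene lower in preadipocytes (Cbr4, -0.47), none called at MCE, where 1 had an unadjusted p under 0.05, and 1 lower at Diff (Oxsm, -0.69), with a median of -0.35 at that stage. In preadipocytes without the doubted library, where 29.0% of all genes were called, counts in shFto cells were 2 higher and 2 lower for elongation and desaturation, 5 and 2 for control of the factors, 1 and 4 for carbon and NADPH supply and 0 and 2 for mitochondrial synthesis. Without that library 41.0% of all genes were called at MCE and 45.7% at Diff, and counts in shFto cells at these stages were 8 higher and 2 lower, then 6 higher and 3 lower, for elongation and desaturation. They were 6 and 2, then 7 and 4, for control of the factors, 5 and 1, then 4 and 3, for carbon and NADPH supply, 1 and 0, then 0 and 4, for mitochondrial synthesis, and 0 and 8 at both stages for the adipocyte markers.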

How the data were processed

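Fragmented total RNA of 12 libraries was used (line by stage, 2 per group), with groups taken from the titles. Upstream, the authors used Trim Galore 0.6.5 for trimming, HISAT2 2.1.0 for alignment (GRCm38) and StringTie 2.1.4 for abundance. The deposited unit is TPM, which keeps no depth, so depth is unknown. Their DESeq2 test on counts was not repeated, and libraries of rhein-treated cells and immunoprecipitated RNA were not analysed here. From the TPM values, log2(TPM + 1) was tested with limma 3.58.1 in R 4.3.3 (1 mean for each group and eBayes with trend, 6 residual degrees of freedom, two-sided, Benjamini-Hochberg over 15968 genes). A gene was called at an adjusted p under 0.05. Fold changes on this scale understate the change of low genes. Fto, averaged over stages, fell by 3.09 (two-sided exact permutation within stages, p = 0.00926, the smallest possible). The script was tested on simulated data in which each gene had the same spread in all groups. That setting does not cover the wider gap between the shScram preadipocyte libraries. Python 3.11.15, numpy 2.4.6, pandas 2.3.3 and matplotlib 3.10.9 were also used. Named genes were all members, Fto, from each list the called genes with the 3 largest changes per comparison of the lines and the most abundant gene, and the 5 genes most like the members' mean profile. Some further genes of the lists, such as Hacd2, Pdgfra and Prkaa1, are named outside this rule. Alternatives were another pseudocount, filters, scalings, spread estimates, sets of libraries, leaving out each library in turn, another call rule and a replicate block, and a GC correction chosen after seeing the data. The members and lists were chosen with earlier results of these data known.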

Additional observations from a re-analysis of the deposited data

Results flagged for a closer look

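The difference between shFto and shScram cells was not the same at the stages compared, by limma's test of that difference, for the 10 genes given here. Further genes of the lists passed too, among them 1 fibroblast marker whose difference rose from preadipocytes to MCE. From preadipocytes to the MCE stage it moved by 1.34 for Scd1 (log2 scale, adjusted p = 0.00255), from -0.68 to 0.66. For Elovl6 it moved by 1.01 (adjusted p = 0.0195), from -1.46 to -0.45, so it shrank without turning. For Lpin1 it moved by 1.31 (adjusted p = 0.0153), for Nr1h3 by -2.66 (adjusted p = 0.00527) and for Thrsp by -1.38 (adjusted p = 0.0233). Among the markers it moved by -2.13 for Fabp4 (adjusted p = 0.00129), -1.65 for Cfd (adjusted p = 0.0271), -1.82 for Cidec (adjusted p = 0.00489) and -1.96 for Dlk1 (adjusted p = 0.00952). From MCE to Diff it moved by -3.33 for Thrsp (adjusted p = 0.00109), which held 52.5 and 52.0 TPM in control cells at Diff and 1.37 and 0.94 TPM in shFto cells. At that step it also moved by -3.95 for Adipoq (adjusted p = 0.00075), -2.36 for Cfd (adjusted p = 0.0085) and -2.15 for Cidec (adjusted p = 0.00314), which held 37.3 and 36.5 TPM in control cells at Diff and 0.93 and 1.46 TPM in shFto cells. The first step rests on the shScram preadipocyte libraries, which stood apart from each other. Groups of 2 libraries are too small for a test of outlying samples.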

How the results depend on the processing

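Of 81 member values, 21 were called. Over 1899 values under alternatives, 37 had the other sign, none of them from a called value, and 2 of them were called under the alternative, in preadipocytes, Fasn without replicate 1 and Scd2 without replicate 2 of shScram. Leaving out 1 library gave 2 to 7 members called between the lines in preadipocytes, 1 to 5 at MCE and 0 to 6 at Diff. For the first and second step it gave 5 to 7 and 0 to 7 in shScram cells, 2 to 7 and 0 to 6 in shFto cells, and 1 to 7 and 0 to 1 for the interactions. The high counts came without either shScram preadipocyte library, and the 0 calls at Diff without replicate 1 of shScram or either shFto replicate of that stage. Fto stayed at -3.12 to -3.07.

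With only the libraries of a comparison, the counts were 0, 5 and 5 between the lines, 1 and 5 in shScram cells, 8 and 6 in shFto cells and 1 and 1 for the interactions, while the share of all genes called was 0.0%, 37.0% and 41.4%, then 3.16% and 40.4%, 50.1% and 54.4%, and 1.5% and 16.9%. Without the 4 preadipocyte libraries they were 5 (MCE), 6 (Diff), 7 (shScram second step), 5 (shFto second step) and 1 (second interaction), with 41.2%, 45.9%, 52.3%, 51.1% and 16.9% of all genes called. At a fold change over 2 with an unadjusted p under 0.05 they were 1, 0 and 0 between the lines, 3 and 0 in shScram cells, and 1 and 0 in shFto cells, with 15.0%, 9.01% and 11%, 19.7% and 12.1%, and 16.0% and 13.9% of all genes past that rule. GC correction gave 4 at Diff (2 higher), 5 (all lower) and 8 (7 lower) at the second step in shScram and shFto cells, and 5 for the first interaction, with 32.6%, 32.8%, 39.3% and 10.3% of all genes called. At the second step, median-ratio scaling gave 5, all lower, and 6, of which 5 lower (22.7% and 28.1% of all genes), no filter gave 0 in shScram cells (12%), and a mean TPM of at least 5 gave 0 and 1 (25% and 24.8%). The replicate block left 1 at MCE (15.2%). The gaps between replicates gave no sign of pairing by replicate number, as only 2 of 15 pairs of groups had a correlation over 0.1 (-0.29 to 0.17). Pairing is not excluded by this check, since such gaps also followed GC content (rho -0.69 in shScram preadipocytes). The cause of the shifts in the counts was not tested.

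Values that changed sign were small in most cases. In preadipocytes, Fasn was -0.51 with GC correction and Me1 -0.063 and -0.094 with median-ratio scaling and quantile normalization, and Acacb at Diff was -0.076 with GC correction. At the first step in shScram cells, Acacb was -0.23 with GC correction. At the second step in shScram cells, Me1 was -0.21 with median-ratio scaling, -0.13 with quantile normalization and -0.21 with GC correction, and Srebf1 -0.028 with median-ratio scaling. In shFto cells Srebf1 was -0.13 with median-ratio scaling and -0.15 with GC correction. For the first interaction Fasn was 0.22 with GC correction. For the second, Acaca was 0.002 and 0.023 with median-ratio scaling and quantile normalization, and Scd2 -0.078 and Me1 0.004 with quantile normalization. Leaving out 1 library gave ranges that crossed 0, in preadipocytes for Fasn (-0.60 to 1.04), Scd2 (-0.49 to 0.43) and Me1 (-0.16 to 0.19), and at MCE for Acacb (-0.35 to 0.002). At the first step they did so in shScram cells for Fasn (-0.27 to 1.38), Acacb (-0.17 to 0.18) and Scd2 (-0.917 to 0.011), and in shFto cells for Scd2 (-0.046 to 0.05). At the second step Me1 in shScram cells ranged from -0.024 to 0.125. For the first interaction Fasn ranged from -1.19 to 0.45 and Scd2 from -0.008 to 0.92, and for the second Acaca from -0.134 to 0.024, Scd2 from -0.053 to 0.08 and Elovl6 from -0.005 to 0.262.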

Other observations

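Over the 6 group means, the members did not follow 1 profile. The correlation of each tested member with the mean profile of the set, which holds the member itself, was 0.95 for Acaca, 0.90 for Acly, 0.87 for Scd2, 0.83 for Elovl6, 0.82 for Me1 and 0.60 for Scd1, but 0.19 for Fasn, -0.52 for Acacb and -0.86 for Srebf1. Outside the set, 10791 genes with a mean of at least 5 TPM were compared with the mean profile over these 6 points. Those most like it were Vdac3 (r = 0.99), Tmpo (0.99), Rbm15 (0.98), Pa2g4 (0.98) and Acat2 (0.98). As the highest of so many values over so few points, these correlations do not show shared control. Acat2, a cytosolic thiolase at the entry of sterol synthesis, had means of 461.0, 148.0 and 83.3 TPM in shScram cells and 238.0, 193.0 and 116.0 TPM in shFto cells. The points share the libraries that stood apart in preadipocytes.

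The ratio of Fasn to Scd1 was 1.34 and 1.24 in shScram cells at MCE and 0.75 and 0.72 in shFto cells, and at Diff 1.41 and 1.16 against 0.52 and 0.57. Because it is taken within a library, it does not depend on a scaling factor common to all genes of that library. A GC-related gap between libraries can still shift the ratio, since Fasn has 57.9% GC and Scd1 47.1%. In preadipocytes the ratio was 0.33 and 0.93 in shScram and 1.101 and 0.989 in shFto cells.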
